A study of Mus musculus with 3 samples.

Results

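The autophagy machinery genes are the genes whose products build the autophagosome, choose its cargo and hand it to the lysosome. They were taken from the deposited table by symbol, as every symbol that begins with Atg and a digit and 22 further named genes, which gave 40 of the 24054 genes in the table. The rule uses symbols and no measured value, but it was written with earlier results of these data known. Averaged over the libraries, 39 of the 40 reached 1 CPM (CPM is the deposited unit, a read count relative to library size) and were compared, among 12692 genes in all. Tfeb was the member below that level.

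RNA was sequenced from primary cortical neurons, taken from the cortex of C57BL/6 mice at embryonic day 17 and cultured for 7 days, with 1 library in each of 3 groups. For hypoxia with T3, the oxygen was lowered to 0.2% during 7 hours and 5 nM of the thyroid hormone T3 was present; hypoxia had the same oxygen and time but no T3, and control stayed at 21% oxygen. Hormone or serum in the medium, and the number of animals pooled, are not stated. The deposited values correspond to 22533574 reads in hypoxia with T3, 17118865 in hypoxia and 18081904 in control. With 1 library a group there is no replicate check and no test: folds are ratios of CPM, and the range in brackets after a fold is its exact 95% Clopper-Pearson interval, which covers counting error only.

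Macroautophagy starts when the ULK1 kinase complex is released from inhibition by mTORC1 or activated by AMPK. A PI3-kinase complex then marks the membrane with phosphatidylinositol 3-phosphate, ATG9 vesicles and ATG2 supply lipid, and a ubiquitin-like conjugation system attaches ATG8 proteins (the LC3 and GABARAP families) to the growing membrane. Receptors such as p62 tether cargo to ATG8 proteins, and the closed autophagosome fuses with the lysosome. In neurons the pathway is constitutively active, with autophagosomes formed in the axon and carried towards the cell body, and its transcripts are under the control of TFEB, TFE3 and FOXO factors among others.

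Promoter sequence is shown for 6 members, picked for their values or motifs. Sqstm1 and Gabarapl1 had high ratios in hypoxia. Atg9a and Atg101 were also higher and hold ACGTG, a form of the core of the hypoxia response element. Lamp1, which was higher but short of 1.5-fold, holds the E-box core bound by TFEB and TFE3, and Uvrag was lower. Each run is the 250 bases before the RefSeq start of the gene, 5′ to 3′ on the strand of the gene, from RefSeq on GRCm38.p6 (the assembly called mm10). The windows are Sqstm1 (chr11:50210821-50211070, minus strand), Gabarapl1 (chr6:129532942-129533191, plus strand), Atg9a (chr1:75192011-75192260, minus strand), Atg101 (chr15:101284051-101284300, plus strand), Lamp1 (chr8:13158911-13159160, plus strand) and Uvrag (chr7:99141145-99141394, minus strand). Capitals mark ACGTG or its reverse complement CACGT, and CACGTG where these overlap. GCGTG, the other form of the core of the hypoxia response element, is not marked.
Sqstm1: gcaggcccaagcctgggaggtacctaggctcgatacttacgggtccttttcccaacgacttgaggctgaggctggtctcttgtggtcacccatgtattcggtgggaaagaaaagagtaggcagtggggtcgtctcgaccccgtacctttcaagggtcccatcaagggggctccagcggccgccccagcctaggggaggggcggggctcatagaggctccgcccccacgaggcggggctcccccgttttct
Gabarapl1: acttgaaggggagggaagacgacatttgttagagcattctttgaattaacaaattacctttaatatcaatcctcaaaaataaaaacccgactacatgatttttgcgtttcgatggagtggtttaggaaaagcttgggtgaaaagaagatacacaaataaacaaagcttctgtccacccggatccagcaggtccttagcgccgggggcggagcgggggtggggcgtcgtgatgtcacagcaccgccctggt
Atg9a: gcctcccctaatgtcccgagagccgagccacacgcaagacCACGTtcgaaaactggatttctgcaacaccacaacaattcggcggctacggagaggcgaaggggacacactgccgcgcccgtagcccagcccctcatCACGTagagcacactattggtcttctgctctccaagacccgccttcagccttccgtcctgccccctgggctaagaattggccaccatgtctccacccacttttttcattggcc
Atg101: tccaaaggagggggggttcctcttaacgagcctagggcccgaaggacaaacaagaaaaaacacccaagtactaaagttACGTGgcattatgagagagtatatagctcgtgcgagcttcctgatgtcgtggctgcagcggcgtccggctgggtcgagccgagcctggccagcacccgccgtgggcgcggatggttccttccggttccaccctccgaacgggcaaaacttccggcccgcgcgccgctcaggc
Lamp1: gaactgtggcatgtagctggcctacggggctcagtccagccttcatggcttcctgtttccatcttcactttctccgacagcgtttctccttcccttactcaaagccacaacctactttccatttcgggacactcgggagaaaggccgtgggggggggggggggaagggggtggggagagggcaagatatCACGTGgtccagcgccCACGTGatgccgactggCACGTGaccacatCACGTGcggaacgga
Uvrag: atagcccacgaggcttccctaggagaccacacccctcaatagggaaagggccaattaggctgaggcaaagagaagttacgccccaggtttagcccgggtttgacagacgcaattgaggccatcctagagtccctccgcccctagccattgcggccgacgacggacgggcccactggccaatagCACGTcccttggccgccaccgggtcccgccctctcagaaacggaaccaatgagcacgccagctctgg

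The 4 E-boxes in the Lamp1 window lie within the last 61 bases before the start, while the windows of Sqstm1 and Gabarapl1 hold no marked letters. RefSeq windows matched 34 of the 40 members by symbol (40 windows, since some genes have several starts). The others were Atg12, Atg16l1, Becn1, Map1lc3a, Pik3c3 and Rb1cc1. On either strand, ACGTG, a form of the core of the hypoxia response element, was in 13 of the 40 windows, 32.5%. Of all 32851 windows of the same length, 16.6% held it. That background includes genes not compared here, and a background of compared genes only was not run. The other form of the core, GCGTG, was not searched. CACGTG, which holds ACGTG on both strands, was in 4 windows, those of Atg3, Atg5, Atg7 and Lamp1 (10%, against 6.02% of all windows). Of these genes, Lamp1 was 1.39-fold higher and Atg5 1.53-fold lower in hypoxia over control. The intervals of Atg3 (0.908 to 1.12) and Atg7 (0.929 to 1.2) included 1. TGANTCA, the AP-1 site, was in 0 windows (6.75% of all). Of the members with ACGTG, Atg9a and Atg101 passed 1.5-fold in hypoxia over control, while Uvrag, Atg5, Pik3r4 and Atg4a had ratios below 1. The other members at least 1.5-fold higher were without ACGTG (Sqstm1, Gabarapl1, Map1lc3b, Tfe3 and Atg14) or without a window (Map1lc3a). A match in these letters is a description and not a bound site.

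The label of the cells was checked against markers. Neuronal markers summed to 3691 CPM in hypoxia with T3, 3758 CPM in hypoxia and 4395 CPM in control, of which Tubb3 alone took 739, 873 and 1771 CPM. Astrocyte markers summed to 299.5, 304 and 273 CPM, and markers of the oligodendrocyte lineage to 184, 181 and 315 CPM. The 5 microglial and the 4 endothelial markers summed to under 2 CPM in each library, with Cldn5 at 0 in both hypoxic libraries. The 5 oligodendrocyte markers had a median log2 ratio of −0.79 in hypoxia over control, and 3 of them were at least 1.5-fold lower. Their part, and that of other cells than neurons, in the values of autophagy genes was not tested. In bulk RNA fewer cells of a type and less RNA per cell cannot be told apart.

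In hypoxia against control, autophagy transcripts differed by modest amounts and in both directions. The ATG8 family, the receptor Sqstm1 and the regulator Tfe3 were higher, by 1.44-fold to 1.72-fold, while the scaffold Rb1cc1, Uvrag, Ambra1 and Atg5 were lower, by 1.48-fold to 1.63-fold. On values with 1 CPM added, 8 of the 39 members compared were at least 1.5-fold higher, 20.5%, against 8.46% of all genes, and 1 was at least 1.5-fold lower, 2.56%, against 13.8% of all genes. At 2-fold the counts were 0 higher and 0 lower, where 1.99% and 4.92% of all genes were. The median log2 ratio of the members was 0.13, beside 0.05 for all genes compared, and 27 of 39 members were above 0, 69.2%, against 54.5% of all genes. Counting intervals lay above 1 for 18 members, 46.2%, against 37.8% of all genes, and below 1 for 8, 20.5%, against 30% of all genes.

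The split depends on how the libraries are scaled. With the sums of the libraries made equal, the median log2 ratio in hypoxia over control was −0.039 for the members and −0.10 for all genes, and the members past 1.5-fold were 2 higher and 6 lower, against 4.08% higher and 19.4% lower for all genes. With median-of-ratios size factors, and likewise with log2 ratios centred on the median of all genes, they were 5 higher and 4 lower of 39, against 6.49% higher and 15.5% lower for all genes under the size factors, and 6.54% and 15.5% under centring. The 5 genes of the ATG8 family, Sqstm1 and Tfe3 had log2 ratios above 0 and Rb1cc1, Uvrag, Ambra1 and Atg5 below 0 under each of these scalings.

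**Figure D1:**
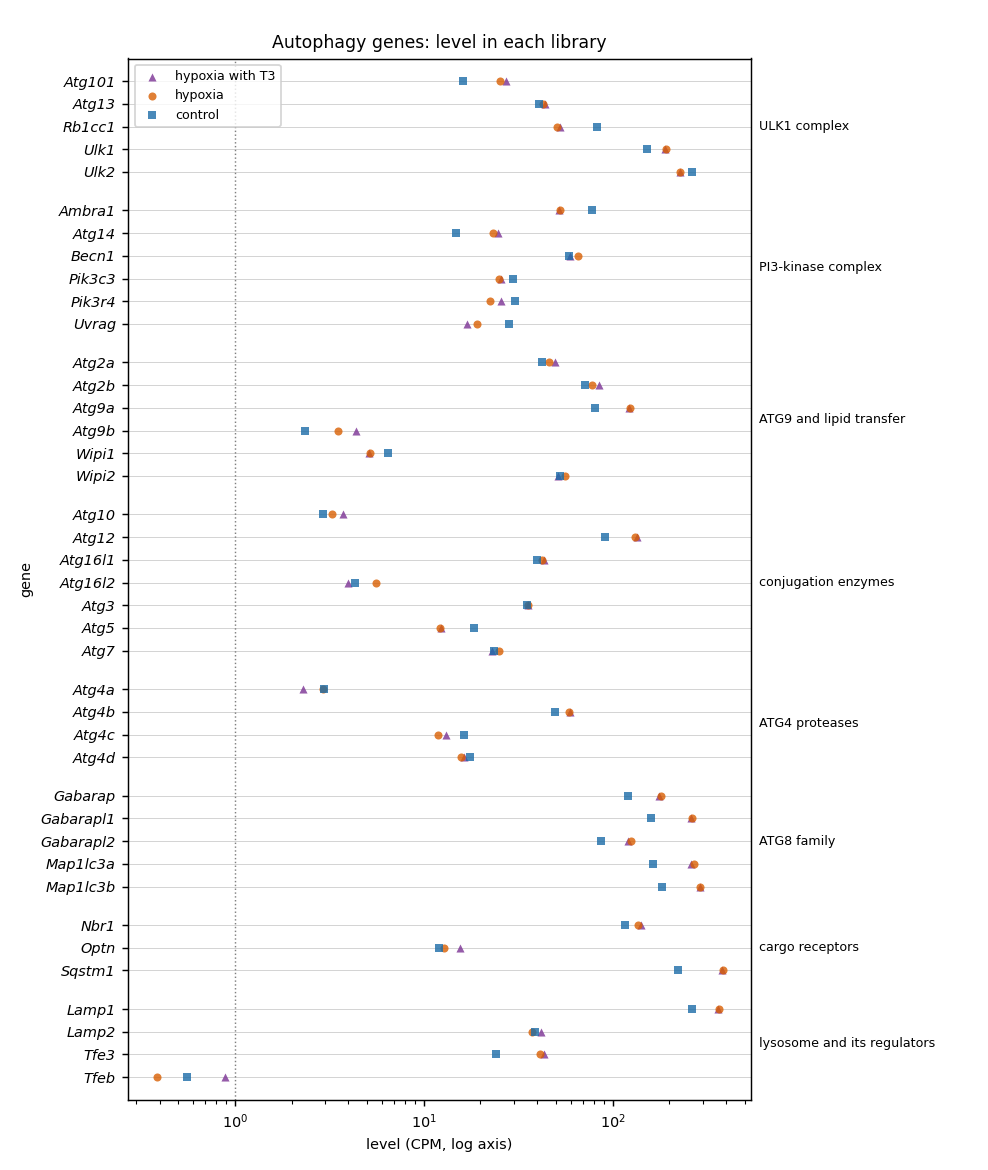
Level of each of the 40 autophagy genes (rows, grouped by role) in CPM on a log axis, with 1 point per library for hypoxia with T3, hypoxia and control. The dotted line marks 1 CPM. The points of the hypoxic libraries nearly coincide for most genes, and the control points lie to their left for all 5 genes of the ATG8 family.

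The ULK1 complex, which starts the pathway, had members on both sides. Atg101, which stabilises ATG13 in the complex (chr15:101284272-101290945, plus strand), was at 27.3 CPM in hypoxia with T3, 25.2 CPM in hypoxia and 16.2 CPM in control, so that the hypoxic libraries were both above control. It was 1.56-fold higher (1.35 to 1.79) in hypoxia over control and 1.68-fold higher (1.48 to 1.92) in hypoxia with T3 over control. Rb1cc1, which encodes the scaffold FIP200 (chr1:6206197-6276648, plus strand), was at 53 CPM in hypoxia with T3, 51.1 CPM in hypoxia and 83.1 CPM in control. Here the order was turned round, with control highest: Rb1cc1 was 1.63-fold lower (1.5 to 1.76) in hypoxia over control, the lowest log2 ratio of the members in that comparison at −0.69, and 1.57-fold lower (1.46 to 1.69) in hypoxia with T3 over control. The kinase genes were nearer to each other. Ulk1 was at 191 CPM in hypoxia with T3, 192 CPM in hypoxia and 153 CPM in control, 1.25-fold higher (1.19 to 1.32) in hypoxia over control. Its relative Ulk2 was at 228 CPM in hypoxia with T3, 226 CPM in hypoxia and 262 CPM in control, 1.16-fold lower (1.11 to 1.21). Atg13, the adaptor between the kinase and FIP200, was at 43.8 CPM in hypoxia with T3, 42.9 CPM in hypoxia and 41 CPM in control, a difference between hypoxia and control not detectable at this depth.

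The PI3-kinase complex exists in forms that share the kinase VPS34 (Pik3c3), its regulatory subunit VPS15 (Pik3r4) and Beclin 1 (Becn1). The form with ATG14 acts at the site where autophagosomes form, and the form with UVRAG acts later, at endosomes and in maturation. Atg14 (chr14:47540893-47570649, minus strand) was at 24.7 CPM in hypoxia with T3, 23.4 CPM in hypoxia and 14.9 CPM in control, 1.57-fold higher (1.35 to 1.82) in hypoxia over control and 1.65-fold higher (1.44 to 1.9) in hypoxia with T3 over control. Uvrag (chr7:98885021-99141141, minus strand) was at 17 CPM in hypoxia with T3, 19.1 CPM in hypoxia and 28.3 CPM in control, 1.48-fold lower (1.3 to 1.7) and 1.66-fold lower (1.46 to 1.89). The genes of these alternative subunits thus lay on opposite sides of control, with Atg14 lowest there and Uvrag highest. Ambra1, which binds Beclin 1 and supports the assembly of the complex, was at 52.3 CPM in hypoxia with T3, 52.5 CPM in hypoxia and 78 CPM in control, 1.49-fold lower (1.37 to 1.61) in hypoxia over control. The shared subunits stayed within 1.5-fold. Pik3c3 was at 25.7 CPM in hypoxia with T3, 25 CPM in hypoxia and 29.6 CPM in control, 1.19-fold lower (1.05 to 1.34) in hypoxia over control. Pik3r4 was at 25.7 CPM in hypoxia with T3, 22.4 CPM in hypoxia and 30.5 CPM in control, 1.36-fold lower (1.2 to 1.54). Becn1 was at 59.8 CPM in hypoxia with T3, 65.6 CPM in hypoxia and 59.1 CPM in control, 1.11-fold higher (1.02 to 1.2) in hypoxia over control. Its exons overlap those of Cntd1 on the opposite strand over 43.9% of their length, but Cntd1 was at 0.85, 1.16 and 0.788 CPM in hypoxia with T3, hypoxia and control.

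Among the genes of membrane supply, Atg9a stood apart. It encodes the lipid scramblase that seeds the autophagosome (chr1:75180860-75192196, minus strand) and was at 123 CPM in hypoxia with T3, 124 CPM in hypoxia and 80.5 CPM in control, 1.54-fold higher (1.45 to 1.65) in hypoxia over control and 1.52-fold higher (1.44 to 1.62) in hypoxia with T3 over control. Its paralog Atg9b was low, at 4.38 CPM in hypoxia with T3, 3.53 CPM in hypoxia and 2.36 CPM in control, or 103, 64 and 51 reads, and was 1.85-fold higher (1.31 to 2.65) in hypoxia with T3 over control. Of the 31-base words of Atg9a, 30.6% also occur in Gm29253, which has no row in the table, so part of its reads cannot be assigned firmly. The lipid transfer genes differed less. Atg2a was at 49.6 CPM in hypoxia with T3, 46.2 CPM in hypoxia and 42.3 CPM in control, and Atg2b at 85.2 CPM in hypoxia with T3, 78.2 CPM in hypoxia and 71.2 CPM in control, 1.1-fold higher (1.02 to 1.18) in hypoxia over control. The phosphoinositide effectors showed no difference detectable at this depth between hypoxia and control, with Wipi2, which recruits ATG16L1, at 51.5 CPM in hypoxia with T3, 56.2 CPM in hypoxia and 52.6 CPM in control and Wipi1 at 5.15 CPM in hypoxia with T3, 5.19 CPM in hypoxia and 6.44 CPM in control.

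The conjugation system attaches ATG12 to ATG5 through ATG7 and ATG10, and ATG8 proteins to lipid through ATG7, ATG3 and the ATG12-ATG5-ATG16L1 complex. Atg12 and Atg5, whose products form a stable conjugate, lay on opposite sides of control. Atg12 was at 135 CPM in hypoxia with T3, 131 CPM in hypoxia and 90.7 CPM in control, 1.45-fold higher (1.36 to 1.54) in hypoxia over control. Atg5 (chr10:44268358-44364291, plus strand) was at 12.3 CPM in hypoxia with T3, 12.2 CPM in hypoxia and 18.6 CPM in control, 1.53-fold lower (1.29 to 1.81) in hypoxia over control, and past 1.5-fold when 0.25 CPM was added in place of 1 CPM. For Atg7, the activating enzyme, Atg3, the conjugating enzyme of the ATG8 branch, and Atg16l1, the ratio of hypoxia to control lay between 1.01 and 1.06 with intervals that include 1. Atg3 was at 35.8 CPM in hypoxia with T3, 35.6 CPM in hypoxia and 35.3 CPM in control, Atg7 at 22.9 CPM in hypoxia with T3, 25 CPM in hypoxia and 23.6 CPM in control and Atg16l1 at 43.6 CPM in hypoxia with T3, 42.5 CPM in hypoxia and 39.9 CPM in control. The low members were Atg10, at 3.74, 3.26 and 2.92 CPM, and Atg16l2, at 3.95, 5.58 and 4.36 CPM, in hypoxia with T3, hypoxia and control.

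The ATG4 proteases prime ATG8 proteins and later release them from lipid. Atg4b, the main protease for LC3, was at 59.5 CPM in hypoxia with T3, 58.5 CPM in hypoxia and 49.3 CPM in control, 1.19-fold higher (1.09 to 1.29) in hypoxia over control. Atg4c was at 13.1 CPM in hypoxia with T3, 11.9 CPM in hypoxia and 16.5 CPM in control, 1.38-fold lower (1.16 to 1.64). Atg4d, at 16.4 CPM in hypoxia with T3, 15.8 CPM in hypoxia and 17.5 CPM in control, differed by no more than counting error. Its exons overlap those of Kri1 on the opposite strand over 19.3% of their length. Kri1 was at 28.1, 26.4 and 21.9 CPM in hypoxia with T3, hypoxia and control, above Atg4d in each library. Reads of the 2 genes may be shared, since the use of strand in counting is not given. Atg4a was at 2.3 CPM in hypoxia with T3, 2.93 CPM in hypoxia and 2.97 CPM in control, and 60.8% of its 31-base words also occur in a processed copy, Atg4a-ps, so its reads cannot be assigned firmly.

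All 5 genes of the ATG8 family compared were higher in the hypoxic libraries. Map1lc3a, encoding LC3A (chr2:155276297-155278073, plus strand), was at 259.7 CPM in hypoxia with T3, 269 CPM in hypoxia and 164 CPM in control, 1.63-fold higher (1.56 to 1.71) in hypoxia over control. Map1lc3b, encoding the LC3B used as a marker of autophagosomes (chr8:121590361-121598760, plus strand), was at 291 CPM in hypoxia with T3, 289 CPM in hypoxia and 183 CPM in control, 1.58-fold higher (1.51 to 1.64). In the GABARAP branch, which acts mainly in closure and fusion, Gabarapl1 (chr6:129533160-129542346, plus strand) was at 259 CPM in hypoxia with T3, 262 CPM in hypoxia and 160 CPM in control, 1.64-fold higher (1.57 to 1.71). Gabarap was at 177 CPM in hypoxia with T3, 179.7 CPM in hypoxia and 121 CPM in control, 1.49-fold higher (1.41 to 1.56), and Gabarapl2, also called GATE-16, at 121 CPM in hypoxia with T3, 126 CPM in hypoxia and 87.3 CPM in control, 1.44-fold higher (1.36 to 1.53). The last 2 were short of 1.5-fold. In hypoxia with T3 over control the folds of the 5 genes ran from 1.39 to 1.62. Summed, the family was at 1108 CPM in hypoxia with T3, 1125 CPM in hypoxia and 716 CPM in control. Shares within the family differed by little between libraries. Map1lc3b took 26.3% (25.7 to 26.8) in hypoxia with T3, 25.7% (25.1 to 26.3) in hypoxia and 25.6% (24.9 to 26.3) in control of the reads of the family, and Gabarapl2, the smallest share, 11% (10.6 to 11.3) in hypoxia with T3, 11.2% (10.8 to 11.6) in hypoxia and 12.2% (11.7 to 12.7) in control. For Gabarapl2 the intervals of the hypoxic libraries lay below that of control.

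Of the cargo receptors, Sqstm1 had, with Tfe3, the highest ratio of the members in hypoxia over control, and the 2 did not differ beyond counting error. It encodes p62, which binds ubiquitinated cargo and LC3 and is itself degraded by autophagy (chr11:50199366-50210827, minus strand). It was at 379 CPM in hypoxia with T3, 382 CPM in hypoxia and 222 CPM in control, 1.72-fold higher (1.66 to 1.79) in hypoxia over control and 1.71-fold higher (1.65 to 1.77) in hypoxia with T3 over control, with a log2 ratio of 0.78 in hypoxia. Its exons overlap those of 3010026O09Rik on the opposite strand over 17.3% of their length, a gene at 6.68, 8.12 and 6.58 CPM in hypoxia with T3, hypoxia and control. Nbr1, a receptor with a like domain plan, was at 141 CPM in hypoxia with T3, 137 CPM in hypoxia and 117 CPM in control, 1.17-fold higher (1.11 to 1.24) in hypoxia over control. Optn, encoding optineurin, a receptor for damaged mitochondria and bacteria, was at 15.6 CPM in hypoxia with T3, 12.8 CPM in hypoxia and 12 CPM in control. It did not differ beyond counting error between hypoxia and control, and was 1.29-fold higher (1.1 to 1.52) in hypoxia with T3 over control.

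At the lysosome, Lamp1, an abundant glycoprotein of its membrane, was at 359.9 CPM in hypoxia with T3, 364 CPM in hypoxia and 263 CPM in control, 1.39-fold higher (1.34 to 1.44) in hypoxia over control. Lamp2, whose isoforms serve chaperone-mediated autophagy and fusion, was at 41.8 CPM in hypoxia with T3, 37.6 CPM in hypoxia and 38.7 CPM in control, a difference between hypoxia and control not detectable at this depth. Tfe3, a factor of the MiT family that drives lysosomal and autophagy genes (chrX:7762560-7775202, plus strand), was at 43.6 CPM in hypoxia with T3, 41.5 CPM in hypoxia and 24.1 CPM in control. It was 1.72-fold higher (1.54 to 1.93) in hypoxia over control and 1.81-fold higher (1.62 to 2.01) in hypoxia with T3 over control, with a log2 ratio of 0.83 on CPM + 1 in the second comparison, the highest of the members there. Its relative Tfeb had 21, 7 and 12 reads, or 0.893, 0.387 and 0.556 CPM, in hypoxia with T3, hypoxia and control, and its ratios were 2.31 (0.946 to 6.43) for hypoxia with T3 over hypoxia and 0.695 (0.232 to 1.92) for hypoxia over control, both within counting error of 1.

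**Figure D2:**
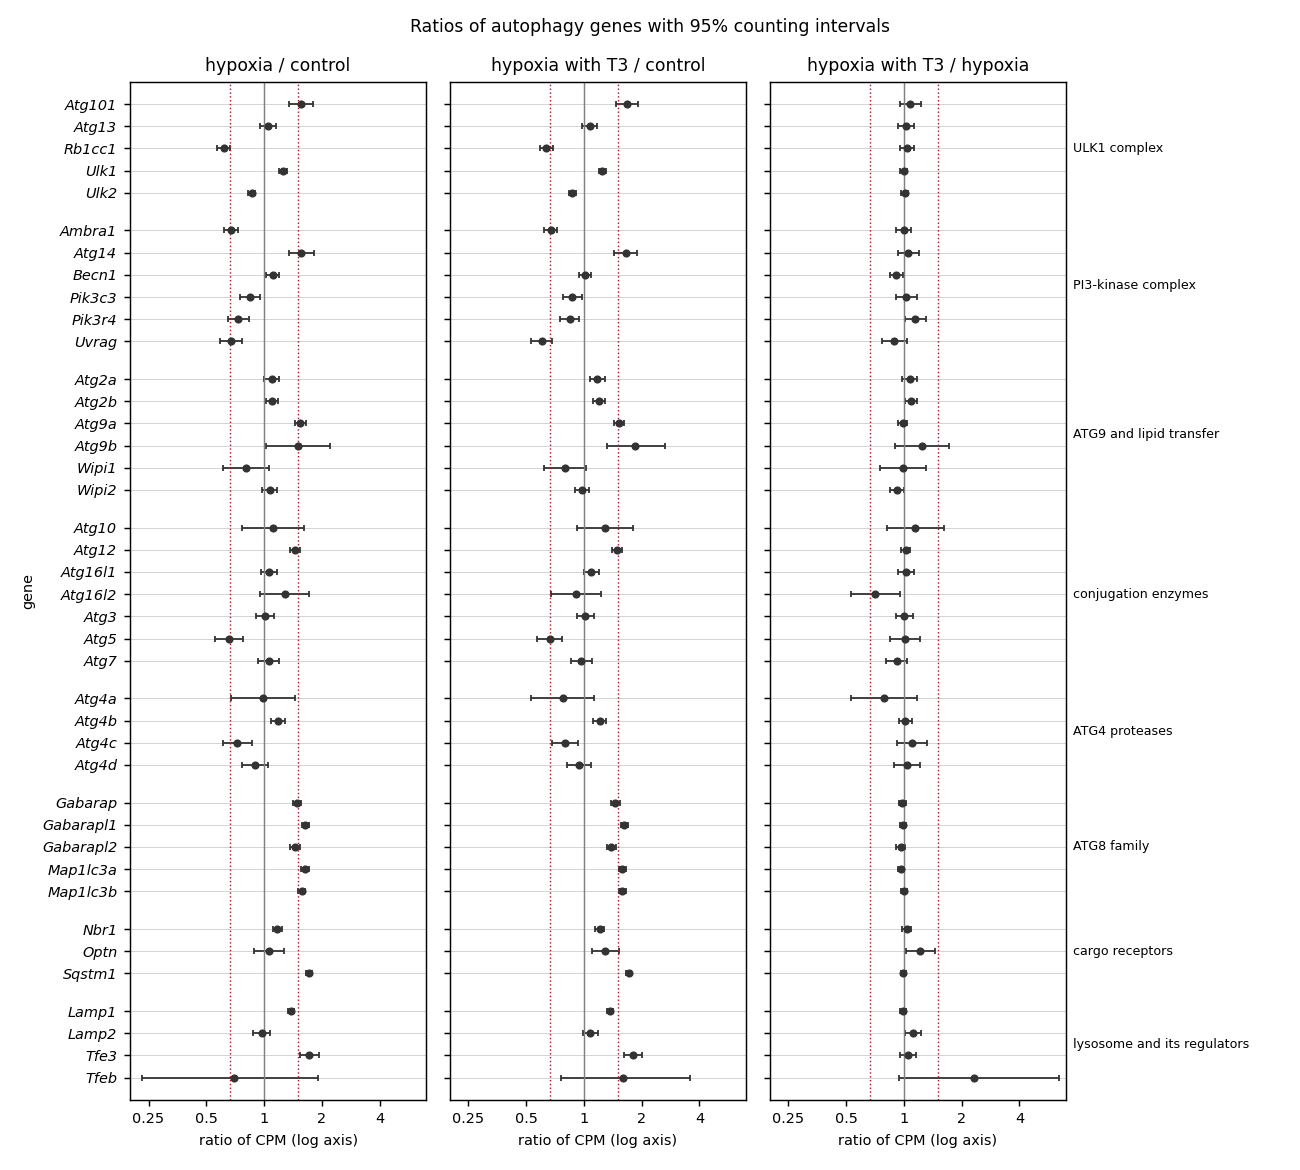
Ratio of CPM on a log axis for each autophagy gene (rows, grouped by role) in hypoxia over control, hypoxia with T3 over control and hypoxia with T3 over hypoxia. Bars are exact 95% counting intervals, the solid line marks 1 and the dotted lines mark 1.5-fold in each direction. The ATG8 genes lie between 1.44 and 1.64 in the first panel, and none of the 39 genes compared passes a dotted line in the third on values with 1 CPM added.

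Levels between genes can be set side by side only per length. Per kb of exonic length (the union of the exons of all annotated transcripts), Map1lc3a had the highest level of the members, at 219.9, 227 and 139 CPM per kb in hypoxia with T3, hypoxia and control. Lamp1 followed at 135, 136 and 98.2 CPM per kb, Gabarapl1 at 129, 130.2 and 79.5, Sqstm1 at 113, 114 and 66.2 and Gabarap at 95.7, 97.5 and 65.6. The low value of Map1lc3b on this scale, 38.7, 38.4 and 24.4 CPM per kb, rests on an annotated exonic length of 7.52 kb, against 1.18 kb for Map1lc3a, so the order depends on which transcripts are counted as the gene. All 40 members together took 0.366% of reads in hypoxia with T3, 0.371% in hypoxia and 0.328% in control.

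Shares within a pair of genes do not depend on the scaling of libraries, because both counts come from the same library. The pairs were chosen after the values were seen. Each names first the gene with the higher ratio of hypoxia to control, so control lies lower by that choice. Ulk1 took 45.5% (44.5 to 46.5) in hypoxia with T3, 45.8% (44.7 to 47) in hypoxia and 36.8% (35.8 to 37.8) in control of the reads of Ulk1 and Ulk2. Atg14 took 59.2% (56 to 62.3) in hypoxia with T3, 55.1% (51.5 to 58.6) in hypoxia and 34.5% (31.5 to 37.7) in control of the reads of Atg14 and Uvrag. In both pairs the hypoxic libraries lay above control with intervals that did not overlap it. Atg101 took 34% (31.9 to 36.2) in hypoxia with T3, 33.1% (30.6 to 35.6) in hypoxia and 16.3% (14.8 to 18) in control of the reads of Atg101 and Rb1cc1, and Atg12 took 91.6% (90.7 to 92.5) in hypoxia with T3, 91.5% (90.4 to 92.6) in hypoxia and 83% (81.4 to 84.5) in control of those of Atg12 and Atg5. Sqstm1 took 72.8% (72 to 73.6) in hypoxia with T3, 73.6% (72.7 to 74.5) in hypoxia and 65.5% (64.4 to 66.6) in control of the reads of Sqstm1 and Nbr1. The hypoxic libraries overlapped each other in all of these 5 pairs.

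**Figure D3:**
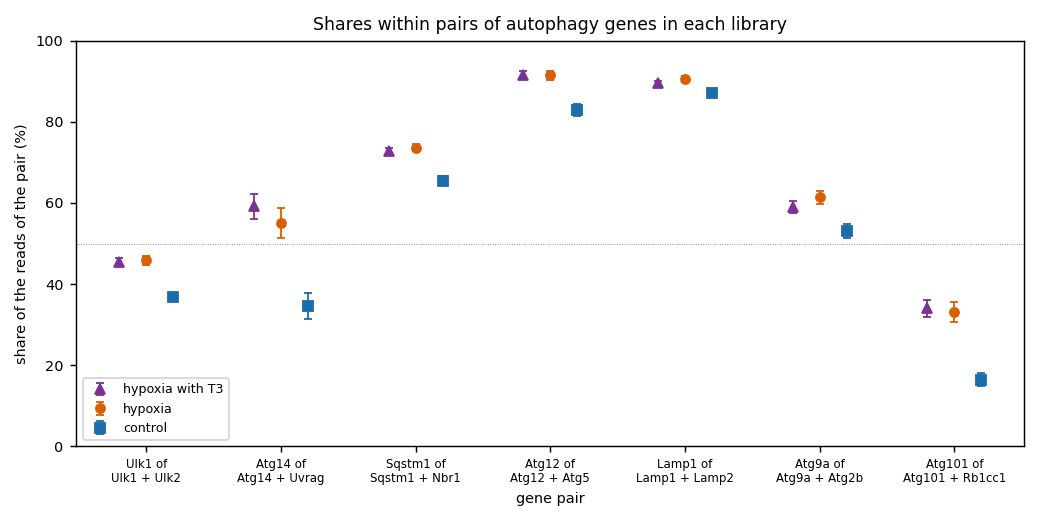
Share of the reads of a pair of autophagy genes that belong to the first gene, in percent, for 7 pairs in hypoxia with T3, hypoxia and control. Bars are exact 95% binomial intervals. The gene with the higher ratio of hypoxia to control is named first in each pair, which by itself puts the control point lower. The gap is widest for Atg14 of Atg14 and Uvrag, at 59.2% and 55.1% in the hypoxic libraries and 34.5% in control.

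Across the members the ratio of hypoxia to control went with genomic span, the length of the annotated gene with its introns. Over the 39 members, which share the same libraries, Spearman's rho between span and log2 ratio was −0.784, beside −0.507 over all 12601 genes with an annotated span. For hypoxia with T3 over control the values were −0.771 and −0.498, and for hypoxia with T3 over hypoxia 0.0579 and 0.0506. The 4 members lowest in hypoxia are long genes: Rb1cc1 spans 70.5 kb, Atg5 95.9 kb, Ambra1 189 kb and Uvrag 256 kb. Those at least 1.5-fold higher are short: Map1lc3a spans 1.78 kb, Atg101 6.67 kb, Map1lc3b 8.4 kb, Gabarapl1 9.19 kb, Atg9a 11.3 kb, Sqstm1 11.5 kb, Tfe3 12.6 kb and Atg14 29.8 kb. Long members with ratios near 1 were Atg10 (289 kb), Atg7 (218 kb) and Atg4a (207 kb). The interval was 0.929 to 1.2 for Atg7. Atg10 and Atg4a had few reads and wide intervals, 0.769 to 1.62 and 0.673 to 1.44, so their ratios are not well fixed. Pik3r4, at 44.7 kb, was the only member under 60 kb whose counting interval lay below 1.

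With a limit of 60 kb, set after the values were seen, the 28 shorter members had a median log2 ratio of 0.31 in hypoxia over control, beside 0.16 for the 9265 shorter genes of all compared. Of these members 8 were at least 1.5-fold higher, 28.6%, against 11.1% of all shorter genes, and 0 were lower, against 7.1%. The 11 longer members had a median of −0.24, beside −0.32 for the 3336 longer genes. Of them 0 were at least 1.5-fold higher and 1 was lower, 9.09%, against 32.6% of all longer genes. The part of span in the differences between members was not tested.

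**Figure D4:**
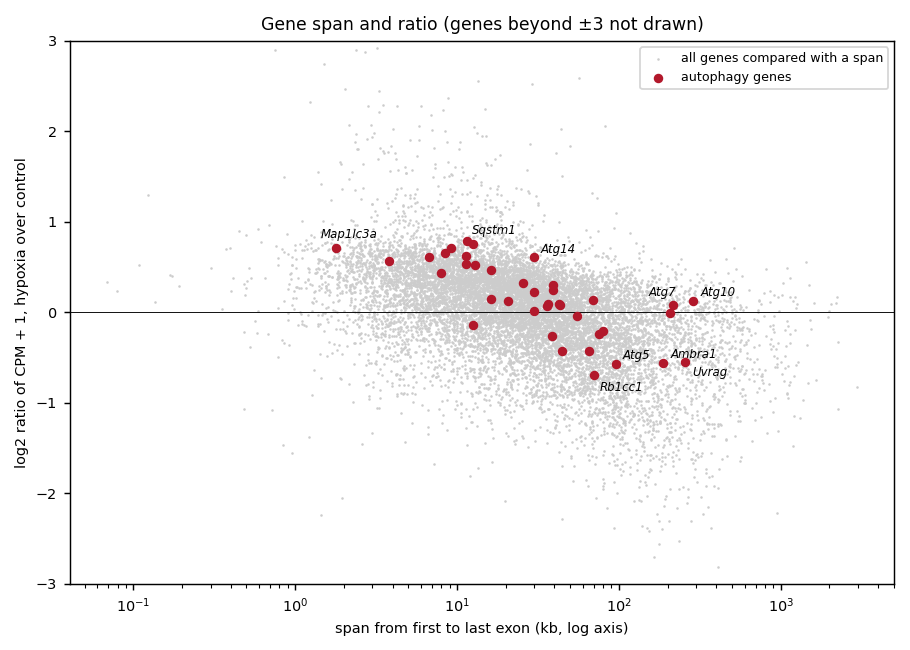
Log2 ratio of CPM + 1 in hypoxia over control (vertical axis) against the span of the gene in kb on a log axis, for all genes compared with an annotated span (grey) and the 39 autophagy genes (red). The red points run from Map1lc3a and Sqstm1 at the upper left down to Rb1cc1, Ambra1 and Uvrag at the lower right, with Atg10 and Atg7 near 0 at long span.

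Hypoxia with T3 set against hypoxia addresses the added hormone at the same oxygen. Here 0 of 39 members were at least 1.5-fold higher and 0 lower, where 0.717% and 0.276% of all genes were, and at 2-fold 0.126% and 0.063% of all genes were, against 0 members. The median log2 ratio was 0.02, beside 0.01 for all genes, and 23 of 39 members were above 0, 59%, against 54.1% of all genes. Ratios ran from 0.709 for Atg16l2 to 1.24 for Atg9b. Counting intervals lay above 1 for 4 members, 10.3%, against 11.1% of all genes, and below 1 for 3, 7.69%, against 6.71%, shares close to the background. Those above 1 were Optn, 1.22-fold higher (1.03 to 1.44), Pik3r4, 1.15-fold higher (1.01 to 1.3), Lamp2, 1.11-fold higher (1.01 to 1.23), and Atg2b, 1.09-fold higher (1.02 to 1.17). Those below 1 were Atg16l2, 1.41-fold lower (1.05 to 1.89), Becn1, 1.1-fold lower (1.01 to 1.19), and Wipi2, 1.09-fold lower (1 to 1.19). For the ATG8 family the ratios lay between 0.963 (Gabarapl2) and 1.01 (Map1lc3b), and for Sqstm1 the ratio was 0.991 (0.961 to 1.02). These abundant genes had narrow intervals.

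For hypoxia with T3 over control, which shares the control library with hypoxia over control, 9 of 39 members were at least 1.5-fold higher, 23.1%, against 8.73% of all genes, and 2 were lower, 5.13%, against 13.1%. At 2-fold the counts were 0 and 0, where 2.06% and 4.59% of all genes were. The 9 were the 8 named above for hypoxia and Atg9b, and the lower genes were Rb1cc1 and Uvrag. With equal sums the counts were 1 higher, Tfe3, and 4 lower of 39, against 3.99% and 19.1% of all genes. With median-of-ratios size factors they were 6 higher and 4 lower, against 5.95% and 15.1%, and with centring 7 higher and 4 lower, against 5.84% and 15.3%. The median log2 ratio was 0.23, beside 0.08 for all genes, and 25 of 39 members were above 0, 64.1%, against 56.4% of all genes. Counting intervals lay above 1 for 19 members, 48.7%, against 40% of all genes, and below 1 for 8, 20.5%, against 29.6%.

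The authors' deposited table for hypoxia over control lists 39 of the 40 members, all but Tfeb, and gives a false discovery rate below 0.05 to 0 of them, and to 85 of its 13152 genes. In the authors' deposited table for hypoxia with T3 over control these numbers were 0 and 104. The lowest p-value of a member in the authors' deposited table was 0.217 for Rb1cc1 in the first comparison, and 0.196 for Uvrag in the second. The signed fold in the authors' deposited table was 1.65 for Sqstm1, 1.65 for Tfe3, 1.57 for Gabarapl1 and −1.70 for Rb1cc1 in hypoxia over control, with negative values standing for minus 1 over the fold. Atg101 at 1.49 and Atg9a at 1.48 were short of 1.5 there. Past it on the lower side were also Atg5 at −1.60, Ambra1 at −1.55 and Uvrag at −1.55. These folds thus differ from the ratios of CPM given above, and so does their split at 1.5-fold. The test behind the authors' values is not given in the sources used here.

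Genes that act on the machinery or follow it were counted in 7 related lists, without the members. In hypoxia over control, where 8.46% of all genes were at least 1.5-fold higher and 13.8% lower, 7 of 36 upstream kinases and regulators of mTORC1 were higher and 4 lower (median log2 0.25). The higher genes include the inhibitors of mTORC1 Ddit4, at 246, 242 and 56.9 CPM in hypoxia with T3, hypoxia and control, 4.26-fold higher (4 to 4.54) in hypoxia over control, and Sesn2, at 60.6, 63.7 and 18.4 CPM, 3.47-fold higher (3.09 to 3.9). Flcn, which with FNIP proteins acts on the Rag GTPases that hold TFEB and TFE3 in the cytosol, was 1.79-fold higher (1.63 to 1.96). Its partner gene Fnip2 was 2-fold lower (1.82 to 2.2). The other lower genes, named after their values were seen, were Sesn1, a sestrin like Sesn2, 1.77-fold lower (1.51 to 2.07), the AMPK catalytic subunit gene Prkaa1, 1.69-fold lower (1.48 to 1.95), and Fnip1, 1.53-fold lower (1.37 to 1.71). The other higher genes, likewise named afterwards, include the AMPK subunit genes Prkab2, 1.74-fold higher (1.59 to 1.9), and Prkab1, 1.57-fold higher (1.37 to 1.8). The rest were Nprl2, 1.74-fold higher (1.53 to 1.98), and Akt1s1, 1.68-fold higher (1.55 to 1.81). Inhibitors of mTORC1 in the list thus lay on both sides, and the third sestrin gene, Sesn3, was 1.07-fold lower (0.96 to 1.19). Of 8 genes of lipid scramblases and the omegasome, 1 was higher, Wdr45b, a WIPI family gene, 1.76-fold higher (1.62 to 1.91).

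The other related lists held few genes past 1.5-fold in hypoxia over control, where 8.46% of all genes were higher and 13.8% lower. Of 17 genes of maturation and fusion 0 were past 1.5-fold (median 0.24), and the named ones include Plekhm1, an adaptor of RAB7, 1.52-fold lower (1.31 to 1.77) in CPM but less with 1 CPM added, and Vps11, of the tethering complexes, 1.48-fold higher (1.37 to 1.6). Epg5 was 1.5-fold lower (1.36 to 1.66) in CPM but also less with 1 CPM added, while 12 of the 17 genes were above 0. Of 14 other receptors and adaptors 1 was higher, Fam134a, a paralog of the receptor for the endoplasmic reticulum, 1.54-fold higher (1.46 to 1.62). Wdfy3 was 1.49-fold lower (1.43 to 1.56) and Calcoco1 1.34-fold lower (1.19 to 1.51), while 9 of the 14 genes were above 0. Of 18 v-ATPase genes, which acidify the lysosome, 1 was higher, the pore subunit Atp6v0c, 1.58-fold higher (1.54 to 1.63), but 16 of 18 were above 0 (median 0.43). Of 39 lysosomal enzymes 3 were higher and 1 lower (median 0.26), and 31 were above 0. The lower gene was Lipa, 1.8-fold lower (1.32 to 2.48), at 3.15, 3.37 and 6.07 CPM in hypoxia with T3, hypoxia and control. Gla, the alpha-galactosidase, was at 29.6, 30.7 and 10.1 CPM, 3.03-fold higher (2.59 to 3.57). The protease gene Ctsd was 1.57-fold higher (1.49 to 1.65), although 33.2% of its words occur in another annotated gene. Of 20 genes in the list named lysosomal membrane 1 was higher, and the median was 0.07. That gene was Npc2, 1.56-fold higher (1.44 to 1.68), whose product is a soluble cholesterol carrier and not a membrane protein. Npc1, which encodes a membrane protein, was 1.25-fold lower (1.13 to 1.38). Slc17a5 was 1.52-fold lower (1.19 to 1.93) in CPM, but less with 1 CPM added. Slc38a9 was 1.41-fold lower (1.15 to 1.74), while 11 of the 20 genes were above 0.

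**Figure D5:**
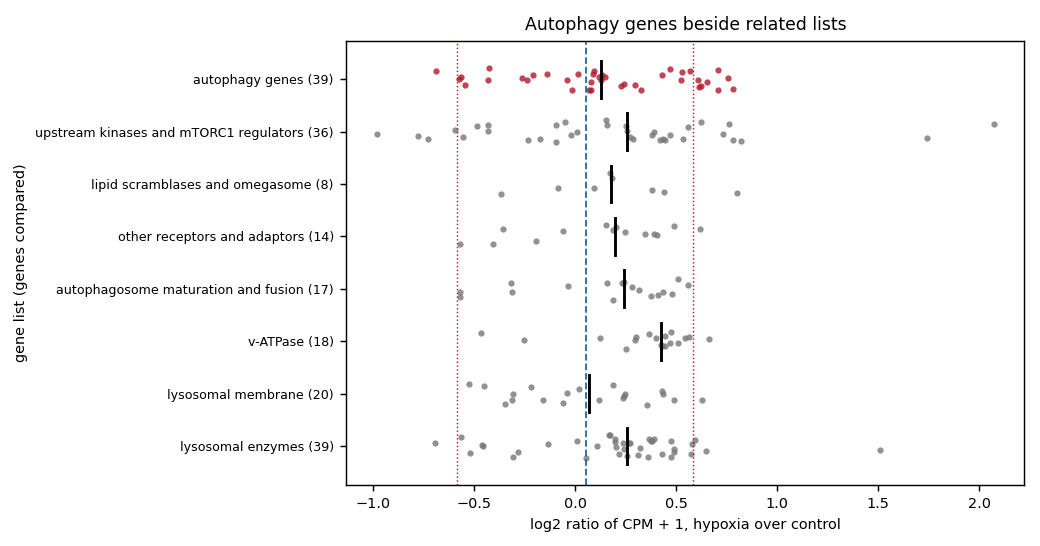
Log2 ratio of CPM + 1 in hypoxia over control for the 39 autophagy genes compared (red) and the genes of 7 related lists (grey), with the number of genes compared in brackets. Black bars mark list medians, the dashed line marks the median of all genes, 0.05, and the dotted lines mark 1.5-fold. The v-ATPase list has the highest median, 0.43, and the lysosomal membrane list the lowest, 0.07.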

How the data were processed

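Each group had 1 library, prepared from total RNA with a stranded KAPA kit. Groups follow the treatment labels, and columns were assigned by the names T30 and T35 in sample titles. Per the submitters' processing notes the tools were RSEM 1.2.15, Bowtie2 2.1.0 and bcl2fastq 2.17, on mm10, with no roles stated, and whether counting used strand is not given in the sources used here. The authors deposited CPM values with TMM normalisation, per the file name. Divided by the smallest value above 0 in the library, 100% of values came out whole to within 0.01, which recovered the reads. A count test such as that of edgeR could not be fitted, since 1 library per group gives no estimate of dispersion. One read stood for 0.0425 CPM in hypoxia with T3, 0.0552 in hypoxia and 0.0463 in control, and the floor for a gene without reads was set at 3 reads. Reads are not independent molecules, so intervals cover counting error only. The authors also deposited 2 tables of comparisons with a fold (a signed score, minus the inverse where below 1), a p-value and an adjusted p. The value columns of those tables, which the authors deposited as a signal, were not used here.

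Log2 ratios were taken on CPM + 1, for genes whose mean CPM was 1 or more. Every member was named with its values, and of each related list up to 4 genes with the largest ratios at a mean CPM of 5 or more could be named. Further genes of the list of mTORC1 regulators, and Lipa and Npc1 of the lysosomal lists, were named after their values were seen. The members and lists were chosen with earlier results of these data known. Older symbols were matched through the synonyms of RefSeq. Spans, exonic lengths and overlaps came from the GENCODE annotation, release M21 on GRCm38 (mm10), matched for all 40 members. Copies were sought as 31-base words shared with transcripts of other genes, with 50% as the rule for a copy. The procedure was tested on simulated libraries with counting error only, which cannot check variation between replicates or the scaling of libraries. Alternatives were pseudocounts of 0.25 and 5 CPM, no filter and a filter of 5 CPM, and 3 other scalings. Computation used scipy 1.17.1, pandas 2.3.3 and numpy 2.4.6 in Python 3.11.15, and figures matplotlib 3.10.9.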

Additional observations from a re-analysis of the deposited data

How the results depend on the processing

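Scaling was the choice that mattered. With equal library sums, the members past 1.5-fold in hypoxia with T3 over control numbered 5, against 11 as reported, and the median log2 ratio of the members was −0.039 in hypoxia over control and 0.036 in hypoxia with T3 over control, against 0.13 and 0.23. The median of all genes moved as well, to −0.10 in both comparisons, against 0.05 and 0.08 as reported, which follows from the scaling itself. The other counts past 1.5-fold and 2-fold, higher and lower together, stayed within 1.5 times the reported count, but their split did not: in hypoxia over control 8 higher and 1 lower as reported became 2 and 6 with equal sums and 5 and 4 with size factors or centring, and in hypoxia with T3 over control 9 and 2 became 1 and 4 with equal sums, 6 and 4 with size factors and 7 and 4 with centring. The other medians stayed within the median half-width of the counting intervals of the members, under the other alternatives run, and no member past 1.5-fold changed sign under any. Under the equal sums 52 of the 117 log2 ratios of single members moved by more than their counting error, and 11 each under median-of-ratios size factors and centring. The sum of Atg4a with its copy was not run, since Atg4a-ps has no row in the table used here. No replicate could be left out, with 1 library per group. No paired analysis was possible because each group has 1 library. Depth limits the members under about 5 CPM (Atg10, Atg16l2, Atg4a, Atg9b and Tfeb), whose intervals are the widest.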

Other observations

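Among the genes of the related lists with a mean of at least 5 CPM, Tmem41b and Ctsl had the highest ratios of hypoxia with T3 over hypoxia. Tmem41b, which encodes a lipid scramblase of the endoplasmic reticulum needed for autophagosome formation, was at 50.8, 30.8 and 32.8 CPM in hypoxia with T3, hypoxia and control. It was 1.65-fold higher (1.49 to 1.83) in hypoxia with T3 over hypoxia, past 1.5-fold, where 0.717% of all genes were. Tmem41b was picked for its high ratio. It was 1 of 8 genes compared in its list, and in the other lists 0 of 36, 17, 14, 39, 20 and 18 were at least 1.5-fold higher. Of its 31-base words, 12.15% also occur in other annotated genes. Ctsl, the lysosomal protease cathepsin L, was at 103, 74.9 and 49.9 CPM, 1.37-fold higher (1.28 to 1.46) in hypoxia with T3 over hypoxia and 2.06-fold higher (1.92 to 2.21) in hypoxia with T3 over control. Neither difference has a replicate check.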
